A study of Rattus norvegicus with 3 samples.

Results

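The genes described here mark 3 of the kinds of blood cell that a tissue sample can carry. They are 10 genes chosen by symbol: HBA-A1, HBA-A2, HBB and ALAS2 for red cells, NGP, CAMP, MPO and ELANE for neutrophils, and PF4 and PPBP for platelets. Of the 10, 5 have an entry in the table used here, which holds 12771 entries with 12758 symbols. The genes with an entry are HBA-A1, HBA-A2, HBB, PF4 and PPBP. ALAS2, NGP, CAMP, MPO and ELANE have no entry under their symbol or a RefSeq synonym, so 3 of 4 red cell genes, 0 of 4 neutrophil genes and 2 of 2 platelet genes could be described.

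The rats were female Sprague Dawley animals aged 3 months. All had a laminectomy at T9, and those of the injured group (SCI) also received a contusion of 250 kdyne there, while the control group (No-SCI) did not. A piece of cord of about 2 mm was cut out at T8 after 24 h and digested at 6°C with a cold-active protease. Centrifugation removed the cells, and the RNA left in the supernatant was sequenced after depletion of ribosomal RNA. The labels list 2 No-SCI libraries and 1 SCI library, although the methods give 2 animals per condition. A perfusion is described for the sections used in microscopy and none is described for the tissue used in sequencing. Levels are in FPKM, a fragment count corrected for transcript length and sequencing depth, and each gene has 1 authors' value per group. Neither counts nor values by library were at hand, so the reads behind each value and the spread between animals are unknown. No test between the groups could be made. Each difference is therefore given as the log2 of the SCI value over the No-SCI value, with no pseudocount, and a difference of 2-fold, a log2 ratio of 1, is used as a mark of size and not of significance.

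Red cells and platelets have no nucleus in mammals but carry RNA made by their precursors. HBA-A1 and HBA-A2 encode the alpha chain of hemoglobin and HBB a beta chain, and ALAS2 encodes the erythroid form of the enzyme that starts heme synthesis. Globin transcripts have also been described in some neurons and glia. MPO and ELANE encode myeloperoxidase and neutrophil elastase of the primary granules, which are filled early in neutrophil development, while NGP and CAMP encode neutrophilic granule protein and cathelicidin of the secondary granules, made at a later stage. PF4 and PPBP encode platelet factor 4 and pro-platelet basic protein, chemokines that platelets store in alpha granules and release when activated.

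Of the 5 members with an entry, 4 have a promoter in the RefSeq table of the GRCr8 assembly. Their last 120 bases before the annotated start are shown because they let the alpha globin copies be compared and set the red cell promoters beside a platelet one. Capitals mark the letters ATAAA (the end of a TATA box), CCAAT and CACCC, each searched on both strands. Where capitals run together, motifs touch or overlap. The FPKM values were made on another assembly (rn6), and these positions apply to GRCr8 alone.
HBA-A1 (chr10:15842581-15842700, minus strand): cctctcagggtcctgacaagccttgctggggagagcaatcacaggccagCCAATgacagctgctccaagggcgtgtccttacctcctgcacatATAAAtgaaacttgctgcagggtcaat
HBA-A2 (chr10:15829139-15829258, minus strand): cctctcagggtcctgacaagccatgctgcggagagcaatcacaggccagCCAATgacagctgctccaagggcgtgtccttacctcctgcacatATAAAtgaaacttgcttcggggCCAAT
HBB (chr1:167663722-167663841, minus strand): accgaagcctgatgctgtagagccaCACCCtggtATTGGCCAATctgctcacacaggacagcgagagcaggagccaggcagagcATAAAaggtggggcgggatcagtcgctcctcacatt
PPBP (chr14:17587300-17587419, minus strand): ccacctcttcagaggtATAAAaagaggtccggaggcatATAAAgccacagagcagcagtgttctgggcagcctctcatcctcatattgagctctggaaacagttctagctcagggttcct

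Counting back from −1, the base just before the start, the windows of HBA-A1 and HBA-A2 have the same base at 115 of 120 positions. Both hold the CCAAT box letters from −71 to −67 and the TATA letters from −27 to −23, and HBA-A2 holds the CCAAT box letters again from −5 to −1. HBB holds the CACCC letters from −95 to −91, the CCAAT box letters on the minus strand from −86 to −82 and on the plus strand from −81 to −77, and the TATA letters from −36 to −32. PPBP holds the TATA letters from −104 to −100 and from −82 to −78 and neither of the other motifs. Among 33469 promoter windows of this length, 21.5% hold the TATA letters, 19.9% the CCAAT box letters and 29.5% the CACCC letters. GATAA, which contains the core that GATA factors bind, was also searched and is in none of the 4 windows, against 11.2% of all windows. These matches describe letters and not sites.

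The globin members were abundant in the supernatant and nearly equal in both groups. In RNA of a supernatant, the number of cells of a type, the RNA per cell and the share left outside the pelleted cells cannot be told apart. HBA-A1 was at 1655 FPKM in No-SCI and 1732 FPKM in SCI, a log2 ratio of 0.07. HBB was at 490 FPKM in No-SCI and 464 FPKM in SCI, a log2 ratio of −0.08. HBA-A2 was at 440 FPKM in No-SCI and 417 FPKM in SCI, a log2 ratio of −0.08 as well. HBA-A1 lay above both other members in either group, and HBB and HBA-A2 lay close together, with HBA-A2 at 0.897 times HBB in No-SCI and 0.899 times in SCI. Whether these neighbours in level differ beyond the spread between animals cannot be said. The negative signs of HBB and HBA-A2 turn to 0.04 when the median of all genes, −0.12, is centred at 0 and to 0.02 and 0.03 when both groups are scaled to the same upper quartile, while HBA-A1 was higher in SCI under each of the 3 scalings tried (median, total and upper quartile). A log2 ratio of at most 0.08 in size was found for 8.69% of all symbols.

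Among all 12758 symbols, HBA-A1 ranked 90 in No-SCI and 89 in SCI, at percentile 99.3 of both groups. HBB ranked 382 and 435, and HBA-A2 ranked 442 and 496. The entries nearest to HBA-A1 in the plane of both log2 levels were GNG12, TUBA1B and PKM, at distances of 0.08, 0.10 and 0.11 on the log2 scale. Nearest to HBB were YWHAZ, CHCHD3 and CETN3, at distances of 0.02, 0.04 and 0.08, and nearest to HBA-A2 were TLE5, PGAP2 and SELENOK, at 0.04, 0.05 and 0.05. Each distance rests on 1 value per group.

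**Figure D1:**
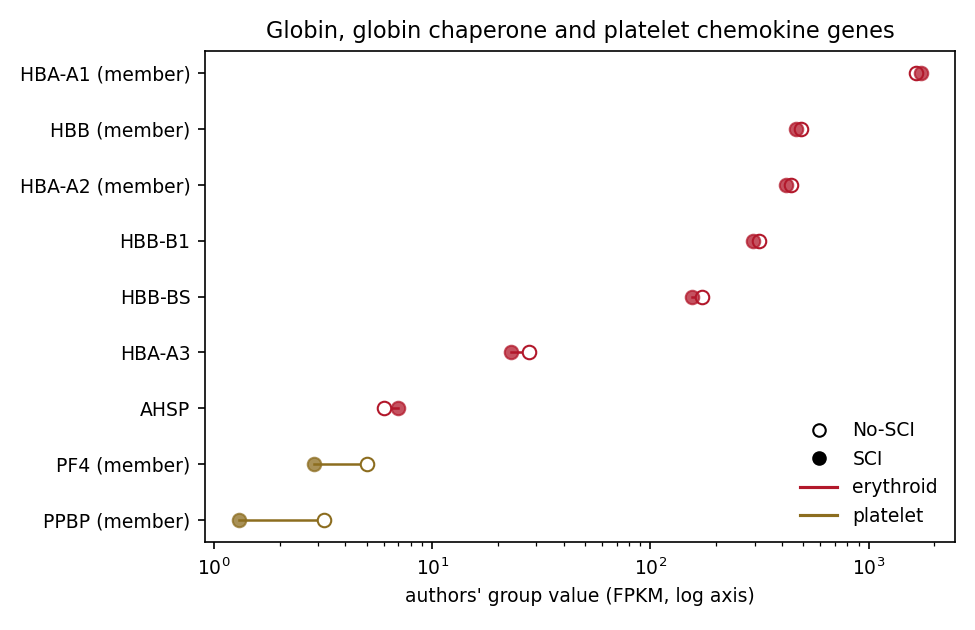
Authors' group values in FPKM on a log axis for the 5 members with an entry, 3 further globin genes (HBB-B1, HBB-BS, HBA-A3) and the globin chaperone AHSP; open circles are No-SCI, filled circles SCI, and there are no error bars because each point is 1 group value. The open and filled circles of HBA-A1, HBB and HBA-A2 overlap at 417 to 1732 FPKM, whereas those of PF4 and PPBP stand apart below 6 FPKM.

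The other globin genes also differed little between the groups. HBB-B1, a beta globin, was at 313 FPKM in No-SCI and 297 FPKM in SCI (log2 ratio −0.08), and HBB-BS, another beta globin, at 172 and 155 FPKM (log2 ratio −0.15). HBA-A3, an alpha globin, was at 27.9 FPKM in No-SCI and 22.8 FPKM in SCI, a log2 ratio of −0.29. AHSP, which encodes the chaperone of free alpha chains, was at 6.03 and 6.95 FPKM, a log2 ratio of 0.21. On a globin list of 17 symbols, which counts AHSP and the synonyms HBA1 and HBA2, 7 have an entry and 0 of these differed by 2-fold. Of all symbols, 7.93% were higher and 12.1% lower by that much. The median log2 ratio of the 7 was −0.08, beside −0.12 for all symbols. The embryonic and fetal globins named on that list have no entry.

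The alpha genes lie close together in the genome, as do the beta genes, and copies of each are nearly alike, so fragments can be split between them in more than one way and the single values are uncertain. The RefSeq table also gives HBA-A1 and HBA-A2 as synonyms of each other. Values summed over copies are therefore also given, although each copy is scaled by its own length. HBB-BT on the list has no entry, and neither have HBA1 and HBA2, which RefSeq gives as synonyms of HBA-A1 and HBA-A2. The 3 alpha entries together were at 2123 FPKM in No-SCI and 2171 FPKM in SCI, and the 3 beta entries at 975 and 916 FPKM. The ratio of alpha to beta was 2.18 in No-SCI and 2.37 in SCI. All 6 entries summed to 3098 FPKM in No-SCI and 3088 FPKM in SCI, which is 0.247% and 0.254% of the total of all symbols. The values of HBA-A1, HBB-B1 and HBB-BS carry 7 digits, as do those of 43.4% of symbols in No-SCI, while those of HBA-A2, HBB and HBA-A3 carry 6. Whether the longer values are sums over several entries of a symbol was not tested.

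ALAS2 was the 1 gene of a list of 9 heme synthesis enzymes without an entry. ALAS1, which starts heme synthesis in all tissues, was at 13.5 FPKM in No-SCI and 12.6 FPKM in SCI. UROD, which makes coproporphyrinogen, was at 31.0 FPKM in No-SCI and 40.7 FPKM in SCI. The 8 genes with an entry were split, 4 higher and 4 lower in SCI. Past 2-fold were 0, against 7.93% of all symbols higher and 12.1% lower. The 8 log2 ratios lay between −0.80 and 0.54. Their median of −0.01 changed sign under each of the 3 scalings.

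Of 38 genes for the red cell membrane, red cell enzymes and erythroid differentiation, 20 have an entry. SLC4A1 (the anion exchanger band 3), ANK1 (ankyrin), EPB42, RHAG, EPOR (the erythropoietin receptor) and GATA1 are among the 18 without one. BPGM, which makes the 2,3-bisphosphoglycerate that loosens oxygen from hemoglobin, was the most abundant, at 1488 FPKM in No-SCI and 748 FPKM in SCI, and PRDX2, a peroxiredoxin of red cells and many other cells, was at 880 and 905 FPKM. Lower by 2-fold or more were 5 of the 20 and higher by that much 0, against 12.1% and 7.93% of all symbols, and with a mean of at least 5 FPKM the count was 3. The largest log2 ratios were those of SPTB, erythroid beta spectrin that is also made in neurons, from 6.35 to 1.69 FPKM (log2 ratio −1.91), and of ADD2, beta adducin that is also made in brain, from 4.06 to 1.19 FPKM (−1.77). Both SCI values are close to the lowest in the table, so the size and order of these ratios depend on how low values are treated. Over the list, the median was a log2 ratio of −0.44. Several of its genes are also used by nervous tissue. Of 12 oligodendrocyte and neuron markers with an entry, 6 were lower by 2-fold or more and 0 higher, with a median log2 ratio of −0.96. Their sum was 53338 FPKM in No-SCI and 31404 FPKM in SCI, of which MOBP alone gave 44200 and 27648 FPKM. The part of oligodendrocytes and neurons in the red cell list was not tested.

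Both platelet members were near the bottom of the table and lower in SCI. PF4 was at 5.03 FPKM in No-SCI and 2.86 FPKM in SCI, which is 1.76-fold lower or a log2 ratio of −0.82. PPBP was at 3.19 FPKM in No-SCI and 1.303 FPKM in SCI, which is 2.45-fold lower or a log2 ratio of −1.29. PF4 lay at percentile 21.04 of all symbols in No-SCI and 11.9 in SCI, and PPBP at 12.6 and 1.39. PPBP was thus the 1 of 5 members with an entry that was lower by 2-fold or more, against 12.1% of all symbols, and 0 of 5 were higher by that much, against 7.93% of all symbols. When all symbols are centred on their median, higher ones make up 49.8% of those past 2-fold instead of 39.7%. With so few members, their share says nothing about them as a group.

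The size of the platelet differences rests on how low values are treated. No value in the table lies below 1, so PPBP in SCI is close to the lowest value. With 1 subtracted from every value the log2 ratios were −1.12 for PF4 and −2.85 for PPBP, and with a pseudocount of 1 they were −0.65 and −0.86. PF4 and PPBP were lower in SCI under each pseudocount, subtraction and scaling tried. PF4 was 1.58 times PPBP in No-SCI and 2.19 times in SCI. HBB was 97.4 times PF4 in No-SCI and 162 times in SCI. Nearest to PF4 in both log2 levels were HOXA10, SOWAHC and ZYG11B, at distances of 0.02, 0.03 and 0.04, and nearest to PPBP were HES5, IZUMO1 and SLC27A6, at 0.06, 0.06 and 0.07.

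**Figure D2:**
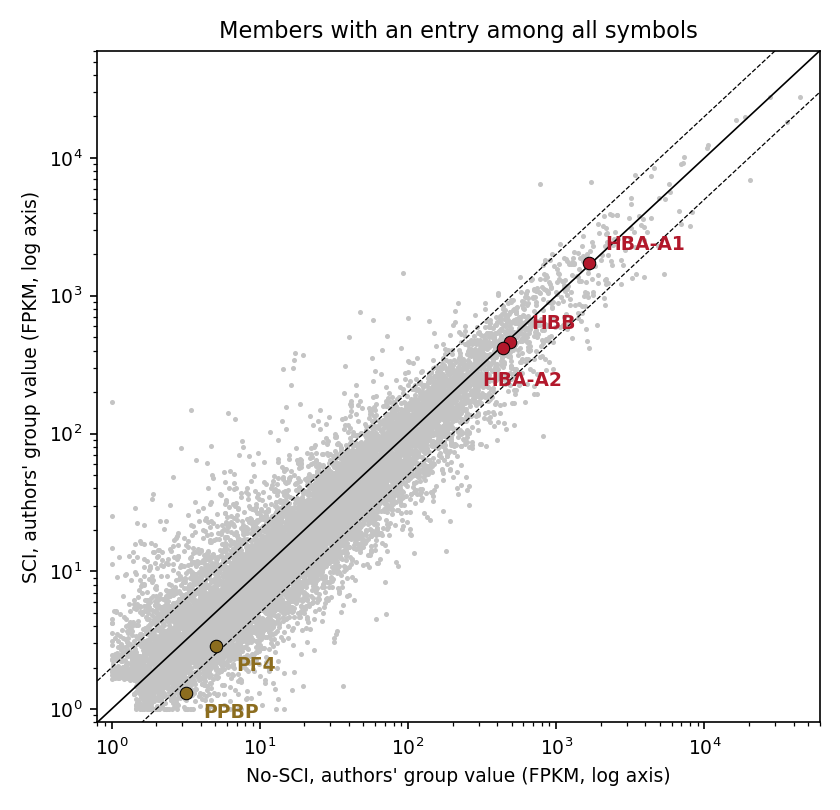
SCI against No-SCI authors' group values in FPKM, both on log axes, for all symbols (grey) and the 5 members with an entry (red for globin genes, brown for platelet genes); the solid line marks equal values and the dashed lines a 2-fold difference. HBA-A1, HBB and HBA-A2 lie on the line of equal values, PF4 lies between it and the lower dashed line, and PPBP lies below the latter.

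The other platelet genes were split in direction. Of 36 platelet receptor and megakaryocyte genes, 25 have an entry, and 14 of them were lower and 11 higher in SCI. By 2-fold or more, 5 were lower and 4 higher, against 12.1% and 7.93% of all symbols. CLEC1B, the receptor of podoplanin on platelets, was at 154 FPKM in No-SCI and 41.4 FPKM in SCI (log2 ratio −1.90). Its No-SCI value lay far above the 5.03 FPKM of PF4 and the 3.19 FPKM of PPBP, and its cell source was not tested. MYL9, a myosin light chain that smooth muscle also makes, was the most abundant, at 174 and 190 FPKM. In the other direction CD36, a scavenger receptor that macrophages and endothelium also carry, was at 6.76 and 29.6 FPKM (2.13), and RUNX1, a transcription factor of blood development, at 14.9 and 43.8 FPKM (1.55). The chains of the receptor for von Willebrand factor were low and differed in sign, with GP1BA at 2.16 and 1.15 FPKM (−0.91), GP9 at 3.14 and 2.18 FPKM (−0.53) and GP1BB at 1.15 and 2.69 FPKM (1.23). ITGA2B and ITGB3, the chains of the fibrinogen receptor, have no entry. Over the 25 genes the median was −0.28.

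PF4 and PPBP are on a list of 20 granule and secreted platelet products. Besides them 12 of its genes have an entry, and 8 of these were higher and 4 lower in SCI, with a median log2 ratio of 0.82. By 2-fold or more, 5 were higher and 0 lower, against 7.93% and 12.1% of all symbols. IGF1, a growth factor that macrophages and many other cells make, was at 99.9 FPKM in No-SCI and 687 FPKM in SCI (log2 ratio 2.78), and TIMP1, an inhibitor of metalloproteinases, at 208 and 780 FPKM (1.91). CLU and SPARC, secreted proteins that glia and vascular cells also make, were the most abundant, at 1103 and 271 FPKM in No-SCI and at 613 and 267 FPKM in SCI. Markers of monocytes and macrophages, 13 of 15 with an entry, summed to 685 FPKM in No-SCI and 1252 FPKM in SCI, of which the chemokine gene CCL2 gave 325 and 460 FPKM and the lysozyme gene LYZ2 201 and 611 FPKM. Of these 13 markers 7 were higher and 6 lower, 4 and 3 of them by 2-fold or more, with a median log2 ratio of 0.05. Endothelial markers, 11 of 15 with an entry, summed to 83.5 and 132 FPKM, with 7 higher and 4 lower, 4 and 1 of them by 2-fold or more. The part of either cell type in the secreted products was not tested.

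**Figure D3:**
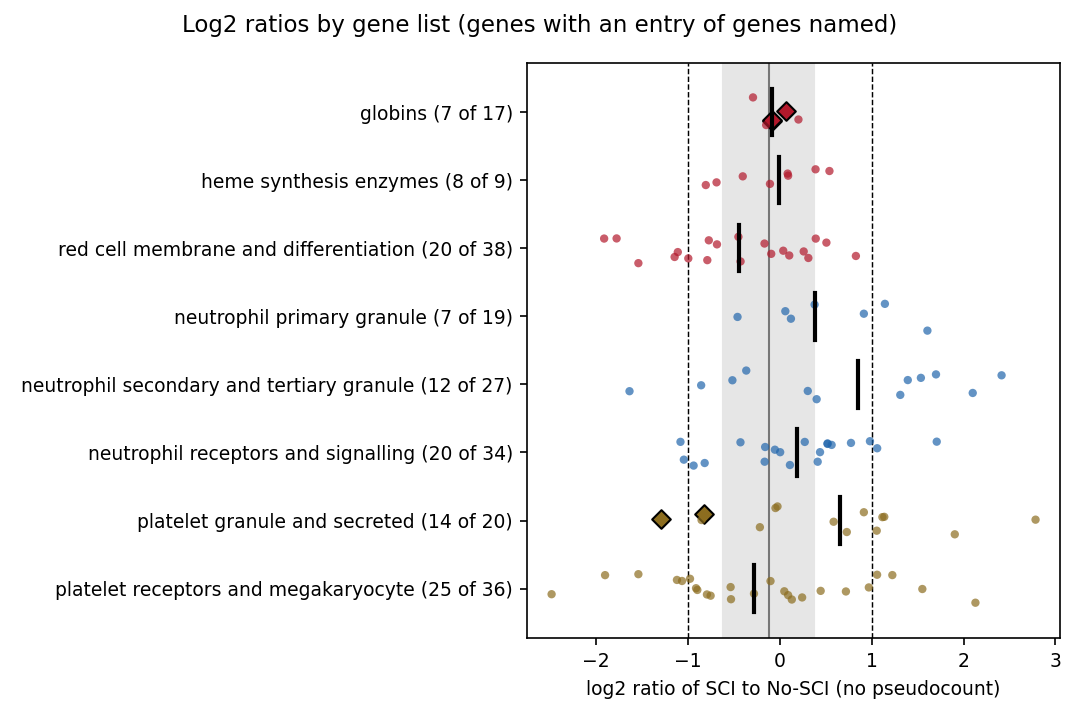
Log2 of the SCI over the No-SCI value, with no pseudocount, for each gene with an entry on the 8 lists of red cell (red), neutrophil (blue) and platelet (brown) genes, spread vertically for legibility; diamonds are members, black bars list medians, the grey line and band the median and the range between the quartiles of all symbols, and dashed lines 2-fold. The genes of the globin list, which counts the chaperone AHSP, gather between −0.29 and 0.21. The granule genes of neutrophils reach 2.41, and PPBP lies left of all other secreted platelet genes.

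MPO, ELANE, NGP and CAMP have no entry, so nothing can be said of the defining granule genes of neutrophils themselves. The same holds for PRTN3 and CTSG, other serine proteases of primary granules, and for LTF, MMP8 and MMP9 of the later granules. Of 19 symbols named for primary granules 7 have an entry, with 2 higher and 0 lower by 2-fold or more, against 7.93% and 12.1% of all symbols. LYZ2, a lysozyme that macrophages and microglia also make and that stands on the macrophage list as well, was at 201 FPKM in No-SCI and 611 FPKM in SCI (log2 ratio 1.61), and SERPINB1A, an inhibitor of neutrophil serine proteases, at 21.4 and 47.3 FPKM (1.15). CD63, a membrane protein of lysosomes and granules in most cells, was the most abundant, at 523 and 546 FPKM. The defensin genes NP4 and RATNP-3B, whose products are stored with myeloperoxidase, were low in both groups, NP4 at 3.12 and 2.27 FPKM and RATNP-3B at 2.26 and 2.95 FPKM.

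Of 27 genes of the secondary and tertiary granules and of neutrophil cytosol, 12 have an entry, 8 of them higher and 4 lower in SCI. By 2-fold or more, 6 were higher and 1 lower, against 7.93% and 12.1% of all symbols. S100A8 and S100A9, the chains of calprotectin that fills the cytosol of neutrophils and is also made by monocytes, were at 32.4 and 14.3 FPKM in No-SCI and at 94.1 and 46.6 FPKM in SCI, log2 ratios of 1.54 and 1.70. ARG1, arginase, was at 9.20 FPKM in No-SCI and 49.04 FPKM in SCI (2.41), and ANXA1, annexin A1, at 44.5 and 190.9 FPKM (2.10). Both are made by macrophages as well. CHI3L1, a chitinase-like protein that astrocytes also make, was lower in SCI, at 170 and 54.9 FPKM (−1.63). Also lower were LCN2, the lipocalin of secondary granules that astrocytes can also make, at 39.4 and 21.8 FPKM (−0.85), and HP, haptoglobin, at 1.49 and 1.05 FPKM (−0.51), both of its values being near the lowest in the table. The median log2 ratio of the 12 was 0.86.

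Receptors and signalling genes of neutrophils were split in direction. Of 34 such genes 20 have an entry, 12 higher and 8 lower in SCI, with a median log2 ratio of 0.19. Past 2-fold were 2 in each direction, against 7.93% of all symbols higher and 12.1% lower. SLPI, an inhibitor of elastase, was at 2.11 FPKM in No-SCI and 6.88 FPKM in SCI (1.71). CXCR2, the chemokine receptor that neutrophils follow into tissue, was at 1.02 and 2.13 FPKM (1.06), and its No-SCI value is close to the lowest in the table. ITGB2, the beta chain of leukocyte integrins that microglia also carry, was at 12.2 and 5.92 FPKM (−1.04), and MXD1, a transcription factor, at 20.5 and 9.73 FPKM (−1.08). RAC2 and SPI1, a small GTPase and a transcription factor of all myeloid cells, were the most abundant, at 140 and 51.6 FPKM in No-SCI and at 126 and 46.1 FPKM in SCI. Genes higher in SCI on the neutrophil lists include ones that macrophages share, and the part of macrophages was not tested.

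**Figure D4:**
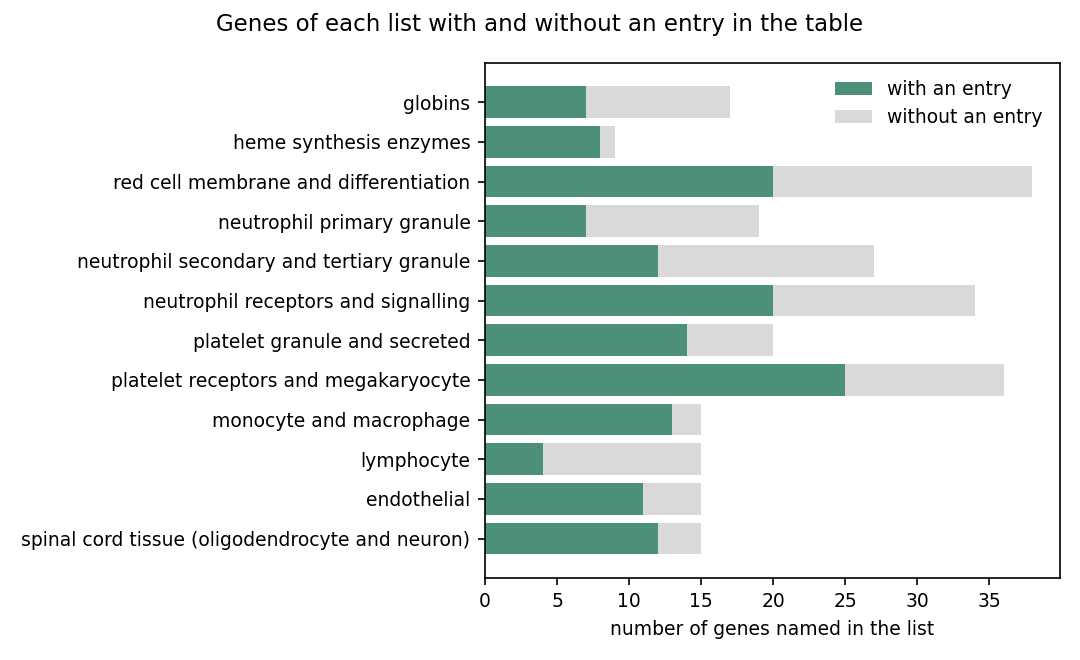
Number of gene symbols named on each list, with (green) and without (grey) an entry in the table. Shown are the 8 red cell, neutrophil and platelet lists and the 4 lists for other cell types. Synonyms such as HBA1 and HBA2 count as symbols of their own. The lists with the lowest shares are those of lymphocytes, with 4 of 15, and of primary granules, with 7 of 19, and those with the highest are heme synthesis, with 8 of 9, and monocytes and macrophages, with 13 of 15.

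A missing entry is no measurement of absence. Of 15 oligodendrocyte and neuron markers, 3 have no entry, and these are MBP, SNAP25 and NEFM, which cord tissue makes in abundance, while MOBP was at 44200 FPKM in No-SCI. For ALAS2, NGP, CAMP, MPO and ELANE it cannot be told whether a low level or another step of the processing left them out. The share of genes with an entry was 88.9% for heme synthesis, 86.7% for monocytes and macrophages and 69.4% for platelet receptors. It was 52.6% for the red cell membrane, 44.4% for the later neutrophil granules, 41.2% for the globin list with AHSP and 36.8% for primary granules. These shares count symbols and depend in part on naming. HBA1 and HBA2 count as without an entry, although RefSeq gives them as synonyms of HBA-A1 and HBA-A2. LYZ and SERPINB1 also count as without an entry, beside LYZ2 and SERPINB1A, which have one.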

How the data were processed

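The authors' deposited FPKM values are 1 estimate per group: every library was first thinned to the read number of the shallowest one, then aligned to rn6 with STAR 2.5.4b and quantified by Cuffdiff 1.3.0 with upper quartile normalization. The authors' fold change, log2, p and q columns were not used. The 2 value columns were assigned by the group named in each row, and 0 measurement columns were left out. For the 13 symbols listed more than once, the entry with the larger mean was kept. Members and lists were chosen with earlier results of these data known. Named genes are all members and, in each list, the 2 with the highest No-SCI value and the 2 with the largest ratio past 2-fold in each direction, except a few items not reported here. Other globin genes, AHSP, ALAS1, S100A8, S100A9, LCN2, HP, CCL2, defensins and GP1B chains were added after their values were seen. The paper states a read number per sample, but the read number left after thinning is not given. Ratio and counting steps were run on the real No-SCI values with known folds planted and no noise added, which checks the code alone. Alternatives were pseudocounts of 1 and 0.1, subtracting 1, 3 scalings, fold minimums of 1.5 and 3, a mean of at least 5 FPKM and the smaller of repeated entries. Python 3.11.15, numpy 2.4.6, pandas 2.3.3 and matplotlib 3.10.9 were used.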

Additional observations from a re-analysis of the deposited data

How the results depend on the processing

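Of 91 alternative values of member ratios and list medians, 78 kept their direction and their side of 2-fold, 9 changed sign and 4 crossed 2-fold. With all symbols centred on their median, HBA-A2 and the globin list were at 0.0399, HBB at 0.0378 and heme synthesis at 0.11. With equal upper quartiles, HBA-A2 and the globin list were at 0.0266, HBB at 0.0244 and heme synthesis at 0.10, and with equal totals heme synthesis was at 0.0371. These shifts are the scaling itself. A pseudocount of 1 moved PPBP to −0.86, which left 0 members lower by 2-fold. Subtracting 1 moved PF4 to −1.12, the later neutrophil granules to 1.09 and secreted platelet products to 1.05, which gave 2 members lower by 2-fold. A fold minimum of 1.5 gave 2 members lower, with 3355 symbols lower and 2153 higher in all, and a minimum of 3 gave 0 members lower, with 417 and 404 symbols, against 1538 and 1012 at 2-fold. A mean of at least 5 FPKM kept 3 members, of which 0 were lower by 2-fold. Of 80 alternative counts for the lists, 14 were over 1.5 times from that reported. Leaving out a library was not run, and no paired analysis was possible because the values are 1 per group. Over these settings PPBP ranged from −2.85 to −0.86 and PF4 from −1.12 to −0.65. The number of reads behind each value is unknown.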

Other observations

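Lymphocytes, the remaining blood cell class of interest, were represented by 4 of 15 marker genes. CD3E, a chain of the T cell receptor complex, was at 2.18 FPKM in No-SCI and 1.95 FPKM in SCI, and CD8A and CD8B, the chains of the CD8 coreceptor, were at 3.67 and 1.37 FPKM in No-SCI, with log2 ratios of 0.69 and 0.87. CD4, which macrophages of the rat also carry, was at 3.25 and 3.40 FPKM. The B cell markers CD79A, CD79B, MS4A1 and PAX5 have no entry. None of the 4 genes differed by 2-fold, against 7.93% of all symbols higher and 12.1% lower by that much. The markers KLF1 and TAL1, transcription factors of red cell precursors, were at 4.63 and 7.39 FPKM in No-SCI and at 5.76 and 8.86 FPKM in SCI, while NFE2, which works in both red cell and platelet precursors, was at 23.3 and 8.05 FPKM, a log2 ratio of −1.53. TFRC, the transferrin receptor through which red cell precursors and many other cells take up iron, was at 11.8 and 5.50 FPKM, a log2 ratio of −1.11. These genes were chosen after their values were seen.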
